A study of Mus musculus with 6 samples.

Results

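The colony-stimulating factors are 3 secreted growth factors of myeloid cells, and with their receptors they make up the 8 genes described here. The members were the rows of the gene list with the symbols Csf1, Csf2 and Csf3 (ligands) and Csf1r, Csf2ra, Csf2rb, Csf2rb2 and Csf3r (receptor chains), and all 8 were among its 20394 genes. Their unique molecular identifiers (UMIs, each of which stands for 1 captured mRNA molecule) were read in 32953 CD45+ cells that had been sorted from the digested synovium of C57BL/6 mice with antigen-induced arthritis. All mice had been immunized with 10 µg of methylated bovine serum albumin (mBSA) in complete Freund's adjuvant and challenged with 100 µg mBSA in the knee on day 21, and from then on they received intraperitoneal PBS (2 samples) or 300 µg PEPITEM, a peptide that restrains leukocyte trafficking (4 samples). No mice without arthritis were part of these samples, and the labels do not say whether a sample held 1 animal or several. The cell barcodes carried a library number from 1 to 6 and no treatment. The libraries could therefore not be assigned to PBS or PEPITEM, treatments were not compared, and libraries are reported as 6 unlabelled samples.

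M-CSF, the product of Csf1, acts through the receptor tyrosine kinase CSF1R and sustains monocytes and macrophages. G-CSF, from Csf3, acts through CSF3R and drives the production and release of neutrophils. GM-CSF, from Csf2, binds a specific alpha chain (Csf2ra) that pairs with a shared beta chain (Csf2rb), which also serves the receptors for interleukin 3 and interleukin 5. Mice carry a further beta chain gene, Csf2rb2, whose product pairs with the interleukin 3 receptor alone. In inflamed joints GM-CSF and G-CSF are well known as factors that feed myeloid inflammation.

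Promoter sequences (RefSeq, GRCm38.p6, 250 bases before to 50 after a start site) were used for 5 members (Csf1, Csf2, Csf2ra, Csf2rb2 and Csf3r), and those of 3 receptor chains are shown because they were the ones of the 5 that held the letters marked below in capitals. Each is printed 5′ to 3′ on the strand of its gene. Capitals mark the letters GAGGAAG, a core to which PU.1 and other ETS factors can bind, or their reverse complement.

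Csf3r, chr4:126024409-126024708, plus strand: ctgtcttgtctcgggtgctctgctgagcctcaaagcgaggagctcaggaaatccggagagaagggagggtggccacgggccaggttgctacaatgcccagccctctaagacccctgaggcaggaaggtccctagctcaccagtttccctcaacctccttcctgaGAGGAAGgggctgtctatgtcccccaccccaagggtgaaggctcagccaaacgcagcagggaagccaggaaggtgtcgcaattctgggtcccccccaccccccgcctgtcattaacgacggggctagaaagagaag

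Csf2ra, chr19:61228369-61228668, minus strand: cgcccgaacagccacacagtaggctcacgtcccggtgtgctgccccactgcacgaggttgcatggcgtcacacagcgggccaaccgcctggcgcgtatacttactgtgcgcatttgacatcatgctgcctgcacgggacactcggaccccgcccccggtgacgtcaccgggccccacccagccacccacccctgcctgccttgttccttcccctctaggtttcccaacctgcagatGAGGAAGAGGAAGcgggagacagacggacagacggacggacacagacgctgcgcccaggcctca

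Csf2rb2, chr15:78305672-78305971, minus strand: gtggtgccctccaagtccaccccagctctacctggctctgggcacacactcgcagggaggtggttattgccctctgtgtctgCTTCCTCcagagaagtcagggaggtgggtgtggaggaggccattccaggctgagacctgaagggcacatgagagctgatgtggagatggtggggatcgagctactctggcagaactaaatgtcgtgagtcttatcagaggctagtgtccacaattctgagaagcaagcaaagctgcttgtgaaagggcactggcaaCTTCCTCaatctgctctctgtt

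GAGGAAG or its reverse complement was found in 4477 of the 32851 promoters of the table (13.6%). It lay once in the Csf3r promoter, 86 bases before the start site, and at 2 overlapping places in that of Csf2ra, 14 and 8 bases before it. The Csf2rb2 promoter held the reverse complement 168 bases before and 28 bases after its start. The promoters of Csf1 and Csf2 did not hold these letters. Those of Csf1r, Csf2rb and Csf3 were not searched. A loose form of the kappa B motif was in 20.7% of all promoters on either strand, and among the members in those of Csf1, Csf2 and Csf3r. TTGCGCAA, the palindrome of the C/EBP factors, was in 0.183% of all promoters and in none of the 5 members. These matches describe letters and were not tested as binding sites.

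To find out which cells held the members, cells were clustered without the 8 genes and the 33 clusters were named from marker genes into 24 classes, each of which is a class of cells like the type it is named for. Neutrophils made up 4 classes, with 3490 mature, 3722 immature, 1373 proliferating immature and 2375 cells whose leading genes (Retnlg, Mmp8 and Stfa genes) mixed markers of both stages, so that their stage was not named. The classes also included granulocyte precursors, stem and progenitor cells, B cell precursors and 162 fibroblasts, although the labels give only CD45+ synovial cells. A level is given as UMIs of the gene per 1000000 UMIs of the class (CPM) and was compared across classes of the same gene only. Depth per library ranged from 47273569 to 123367661 UMIs in 2919 to 9345 cells. Of the barcode sequences, 138 occurred in more than 1 library (276 cells), and 15 of these had the same class in each.

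A limit of these classes had to be settled before the values could be read. A UMI of Ly6g or Cxcr2, surface proteins of neutrophils, in a cell outside the neutrophil classes and their precursors, or UMIs of at least 2 markers of another lineage were found in 4845 of the 32953 cells (14.7%), hereafter mixed cells. They made up 2001 of 4302 inflammatory macrophages (46.5%), 724 of 2443 resident macrophages (29.6%), 496 of 665 nonclassical monocytes (74.6%) and 281 of 335 plasma cells (83.9%). Neutrophils and their precursors could count as mixed only by at least 2 markers of another lineage, and mature neutrophils were shallow, with a median of 4230.5 UMIs per cell. Their 63 mixed cells of 3490 are therefore not comparable with the shares in other classes. Mixed cells were deeper, with a median of 23062 UMIs against 9821.5 in the others. One cluster of inflammatory macrophages, led by Apoe, Ccl8 and Arg1, held 1693 mixed cells among 1855. The other, led by Cxcl9, held 308 among 2447, so unmixed inflammatory macrophages came mostly from it. Each level is therefore given in all cells of a class and, where the exclusion changed it, in unmixed cells. This exclusion was chosen after the data were seen.

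**Figure D1:**
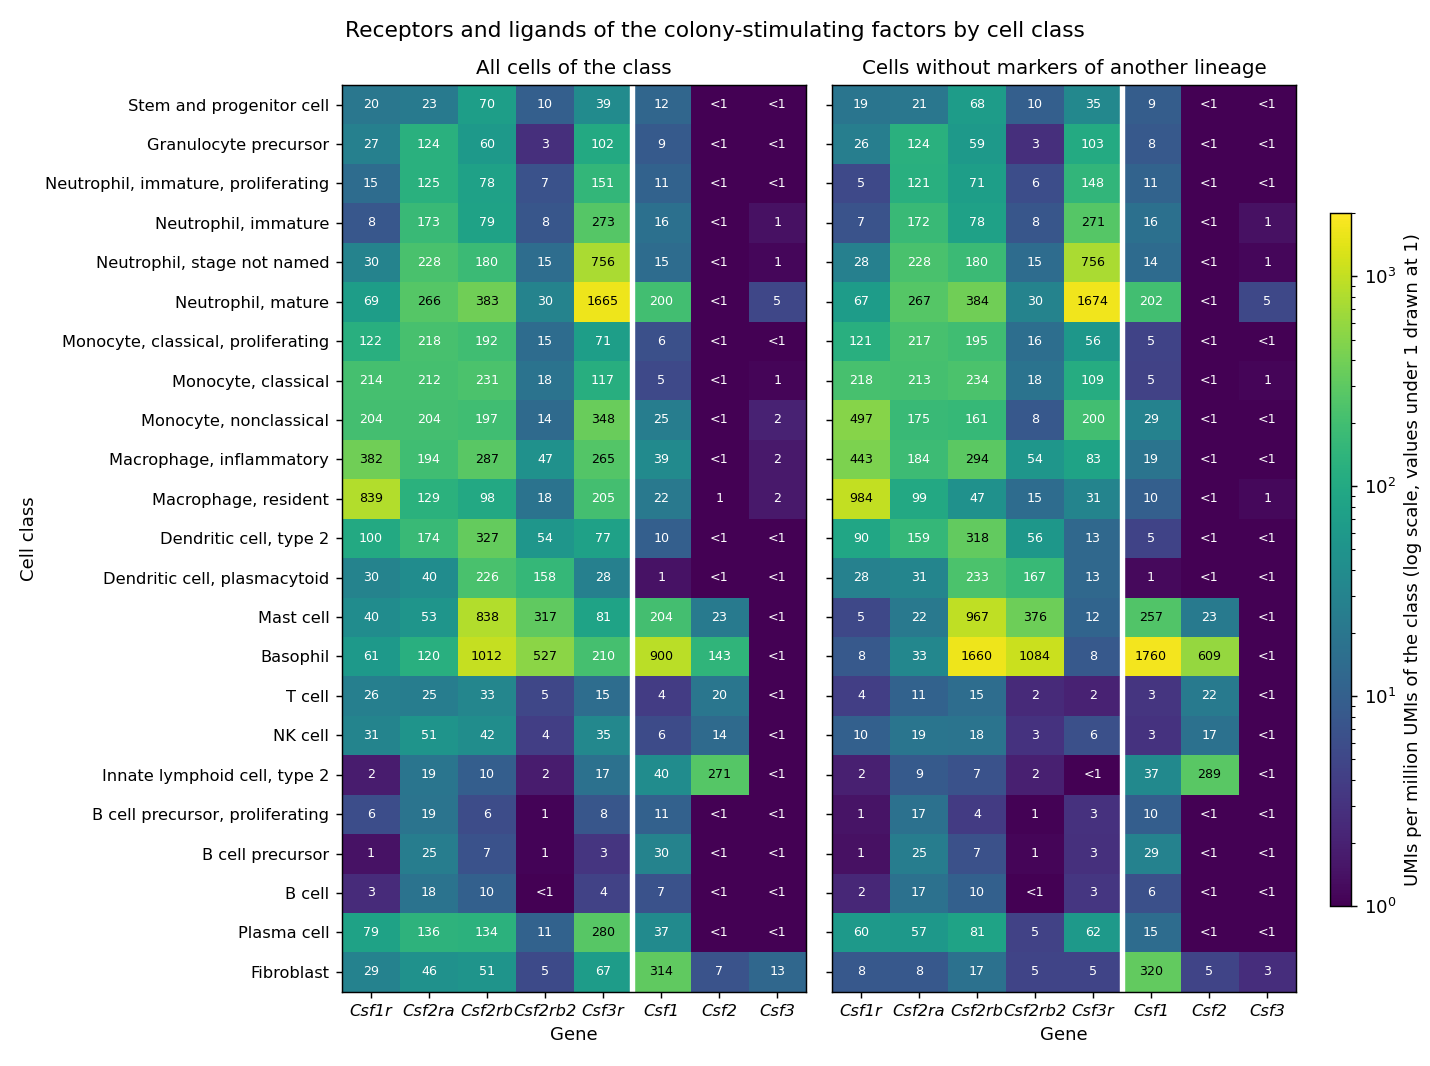
Level of the 5 receptor chains (left of the white line) and 3 ligands (right of it) in each cell class, as CPM, printed in each field and coloured on a log scale, for all cells and for cells without markers of another lineage. The class of 15 erythroid cells is not drawn. Csf3r was highest in mature neutrophils and Csf1r in resident macrophages in both panels, whereas Csf3r in resident macrophages was 205 CPM in all cells and 31.2 CPM in unmixed cells.

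The G-CSF receptor gene Csf3r (chr4:126024550-126044440, plus strand, protein coding, GRCm38 as in GENCODE) was the member with the most UMIs, 113219 in all. It was highest in mature neutrophils, at 1665 CPM (95% exact Poisson interval 1646 to 1685), with 1665, 1610, 1611, 1681, 1575 and 1822 CPM in libraries 1 to 6. Every one of these values lay above every other class of neutrophils. The class of unnamed stage followed at 756 CPM, with 408 CPM in library 3 and 650 to 878 CPM in the other 5. Immature neutrophils had 273 CPM (204 to 337 over 6 libraries), proliferating immature neutrophils 151 CPM (106 to 204 over 5 libraries) and granulocyte precursors 102 CPM (77.3 to 107 over 5 libraries). Immature neutrophils touched the proliferating ones, since the lowest library of the first and the highest of the second were both at 204 CPM, while the mature class stood apart from both. At least 1 UMI of Csf3r was seen in 98.1% of mature neutrophils at a median of 4219 UMIs per unmixed cell, against 1.68% of B cells at a median of 5608. Entries stored as 0 made up 45.6% of the Csf3r entries of B cells and 0.117% of those of mature neutrophils, and for Csf1r 54.0% and 4.25%. Shares of B cells with a UMI are therefore those left after the authors' subtraction of ambient RNA, and how far it changed each class was not tested.

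Within immature neutrophils the level also differed between clusters. These are listed by rising Csf3r, so their order is not one of stage. In unmixed cells Csf3r was at 148 CPM (123 to 176 over libraries) in the first, 285 CPM (221 to 361) in the second and 519 CPM (474 to 554) in the third, and these ranges did not overlap. A mature cluster led by Rsad2, Ifit1 and other interferon-stimulated genes had 1372 CPM of Csf3r against 1712 CPM in the main mature cluster. The ranges of these 2 clusters, 1180 to 1661 and 1616 to 1840 CPM, overlapped.

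CPM is a share of the RNA of a cell, and the RNA content of these classes differed widely. Granulocyte precursors had a median of 35297 UMIs per cell, immature neutrophils 11802.5 and mature neutrophils 4230.5. Counted per cell, Csf3r was at 3.70 UMIs in precursors (3.36 to 4.41 over libraries), 3.70 in immature neutrophils (3.13 to 5.82) and 8.14 in mature neutrophils (6.81 to 10.8). The step from precursors to immature neutrophils, 2.70-fold in CPM, was thus not seen in UMIs per cell, where the libraries overlapped, whereas the step to mature neutrophils was present on both scales with no overlap of the libraries.

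The GM-CSF receptor chains behaved differently from each other on these scales. Csf2ra, the GM-CSF-specific alpha chain (chr19:61223957-61228429, minus strand), stood at 266 CPM in mature neutrophils, with 333, 316, 290, 264, 222 and 253 CPM in libraries 1 to 6, and at 173 CPM in immature neutrophils (156 to 230). These ranges overlapped. In UMIs per cell the order was the opposite, with 4.51 in precursors (4.06 to 6.74), 2.34 in immature neutrophils (1.97 to 4.16) and 1.30 in mature neutrophils (0.959 to 2.17). Csf2rb, the shared beta chain (chr15:78325752-78353847, plus strand), had 383 CPM in mature neutrophils, with 370, 385, 405, 446, 359 and 376 CPM in the 6 libraries, against 78.6 CPM in immature neutrophils (61.9 to 86.2). Its UMIs per cell were 2.17 in precursors, 1.07 in immature neutrophils (0.774 to 1.49) and 1.87 in mature neutrophils (1.55 to 2.41). Mature neutrophils therefore lay above immature ones for Csf2rb on both scales, and overlapped with precursors (1.91 to 3.15) in UMIs per cell.

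Of the 7 members that reached 5 CPM in either class, 5 lay higher in mature than in immature neutrophils in every library of both (Csf3r, Csf2rb, Csf2rb2, Csf1 and Csf1r), none lay lower, and 2 overlapped (Csf2ra and Csf3). Among all 7015 genes over the same filter 48.7% did not overlap (49.2% in unmixed cells, where the members' counts were the same). In all cells 2022 of these genes lay higher in mature neutrophils and 1394 lower. The folds in CPM were 6.10 for Csf3r, 4.88 for Csf2rb, 3.94 for Csf2rb2, 12.2 for Csf1 and 8.86 for Csf1r. They exceed the folds per cell, since mature neutrophils held fewer UMIs. Csf2rb2, for instance, had 512 UMIs in 3490 mature and 384 in 3722 immature cells. Csf1r rose from 7.79 to 69.0 CPM and had 55.8 to 84.0 CPM over the libraries of mature neutrophils. From granulocyte precursors to immature neutrophils, 2 of 6 members lay higher without overlap, Csf3r (2.70-fold) and Csf2ra (1.39-fold), and none lower. Of all 9395 genes there, 75.3% did not overlap (75.2% in unmixed cells). In all cells 1525 genes lay higher in immature neutrophils and 5553 lower. Within single libraries, the CPM of each of the 7 members was higher in mature than in immature neutrophils in 6 of 6 libraries of unmixed cells. That of Csf3 was so in 5 of 6 in all cells. Per cell, Csf2ra went the other way, as given above. One direction in every library was seen for 67.1% of all genes (67.3% in unmixed cells). From precursors to immature neutrophils, Csf3r, Csf2ra and Csf2rb2 were higher and Csf1r lower in 5 of 5 libraries, against 87.1% of all genes with one direction in both sets of cells. These shares of members stood in pairs of classes where a large part of all genes differed.

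**Figure D2:**
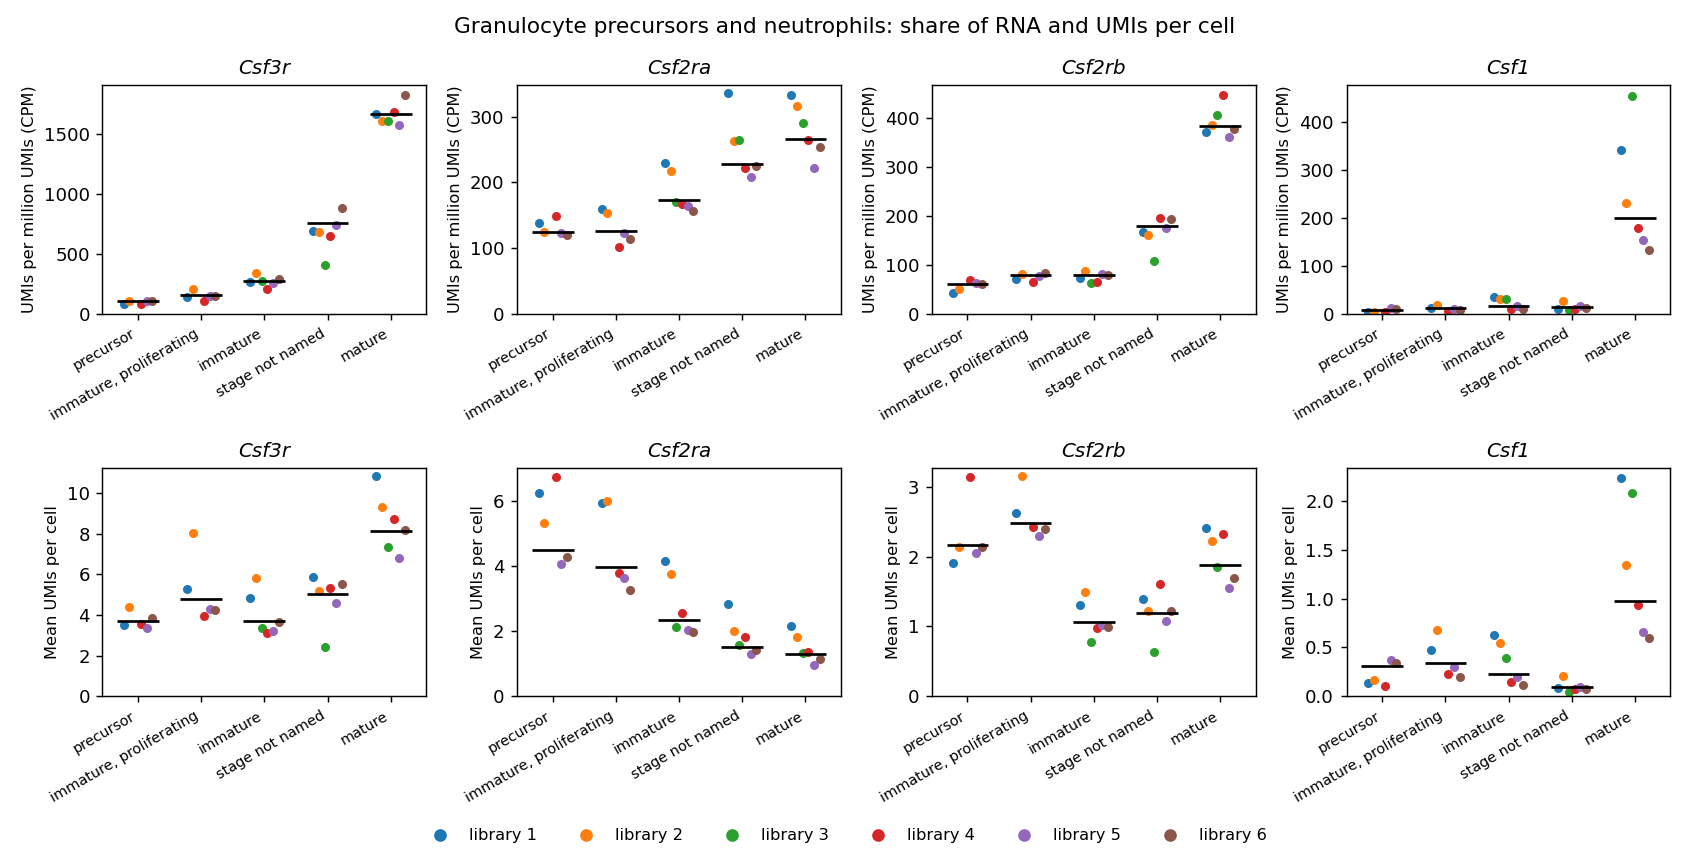
Csf3r, Csf2ra, Csf2rb and Csf1 in granulocyte precursors and 4 classes of neutrophils, as CPM (top) and as mean UMIs per cell (bottom); points are libraries with at least 20 cells of the class, lines the value over all its cells. Csf3r was highest in mature neutrophils on both scales, while Csf2ra was at 266 CPM there and fell from 4.51 UMIs per cell in precursors to 1.30 in mature neutrophils.

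The other genes of the pathway were read from a list of 37 genes, and their folds are of CPM and not of UMIs per cell. Of the 27 that passed the filter in mature and immature neutrophils, 15 lay higher in mature cells without overlap, 5 lower and 7 overlapped, beside the 48.7% of all genes without overlap. Among the kinases that the receptors use, Jak2, which is bound to the beta chain, was 6.64-fold higher (230 against 34.7 CPM) and Lyn, a Src family kinase, 3.65-fold higher. Socs3, the inhibitor that damps G-CSF receptor signals, was at 122 CPM in mature (68.4 to 146) and 10.9 CPM in immature neutrophils (7.38 to 18.6). Inpp5d, a phosphatase that limits cytokine signals, was 6.78-fold higher. Cebpe, a transcription factor of granule formation, was lower at 9.32 against 146 CPM. It was among the markers that named the immature class, so its direction is no independent result, although it is counted among the 27 genes. Cebpb, known from emergency granulopoiesis, was 4.34-fold higher. The Dok2 adaptor was at 1.52 against 16.6 CPM.

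The gene of the M-CSF receptor, Csf1r, showed the reverse pattern across the 2 lineages. Over all monocytes and macrophages it stood at 382 CPM (291 to 472) and over all neutrophils at 21.1 CPM (16.7 to 39.1), an 18.1-fold difference, and 23.3-fold in unmixed cells. In this pair of lineages 6 members passed the filter. Csf1r, Csf2rb (1.72-fold) and Csf2rb2 (2.68-fold) lay lower in neutrophils without overlap, Csf3r lay 2.32-fold higher (6.24-fold in unmixed cells), and Csf2ra (176 against 190 CPM) and Csf1 overlapped. The share of all genes without overlap was 74.2% (77.7% in unmixed cells). Of all 9498 genes in all cells, 6088 lay lower in neutrophils without overlap and 957 higher. The neutrophil values pooled all stages. Mature neutrophils alone had 383 CPM of Csf2rb (359 to 446), above the 227 CPM of all monocytes and macrophages (206 to 284) without overlap. Their Csf2rb2 was 30.0 CPM (20.9 to 45.1) against 30.3 CPM (21.3 to 47.5), which overlapped. In UMIs per cell the order of Csf2rb was the opposite. Unmixed monocytes and macrophages had 3.52 UMIs per cell (2.81 to 4.39), above the range given earlier for mature neutrophils. For Csf2rb2, 499 UMIs lay in 3427 unmixed mature neutrophils and 3428 UMIs in 7288 unmixed monocytes and macrophages. Although the ranges of Csf1 in CPM overlapped, within libraries its CPM was higher in neutrophils in 6 of 6, in all and in unmixed cells. In unmixed cells the Csf1 of neutrophils was 118, 59.1, 173, 38.1, 30.1 and 22.0 CPM in libraries 1 to 6, and that of monocytes and macrophages 15.5, 5.41, 22.9, 5.6, 6.96 and 9.14 CPM. Csf2ra was higher in neutrophils in 4 libraries and lower in 2. One direction in every library was seen for 87.4% of all genes (88.0% in unmixed cells).

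The main cluster of resident macrophages (2302 of 2443 cells) was led by Lyve1, Fxyd2 and Aqp1. This class had the highest Csf1r, at 839 CPM in all cells and 984 CPM in the 1719 unmixed ones. In unmixed cells the libraries had 1056, 809, 965, 932, 1005 and 995 CPM. Library 2 was the lowest, yet above every library of any other class. Inflammatory macrophages joined a cluster led by Apoe, Ccl8 and Arg1 with one led by Cxcl9, and their unmixed cells were mostly of the latter. They followed with 443 CPM in unmixed cells (370, 484, 467, 447, 412 and 514 CPM), and classical monocytes with 218 CPM (240, 208, 273, 218, 189 and 234 CPM). Proliferating monocytes had 121 CPM (85.4 to 147), below every library of the nonproliferating class. Nonclassical monocytes had 204 CPM in all 665 cells and 497 CPM in the 169 unmixed ones, with 576, 422 and 503 CPM in the 3 libraries that held enough of them, which overlapped with inflammatory macrophages. Genes of skeletal muscle (Acta1, Myl1) were among the leading genes of that class, and their part in its values was not tested. In type 2 dendritic cells Csf1r was at 90.2 CPM (70.0 to 121) in unmixed cells.

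Csf1r (chr18:61100598-61132149, plus strand) was detected in 95.8% of unmixed resident macrophages, 94.0% of inflammatory macrophages and 90.2% of classical monocytes. Its UMIs per cell in unmixed cells were 11.8, 7.46 and 3.51 in the same order, so the rank was that of the CPM. In mature neutrophils 25.5% of unmixed cells held a UMI, against 1.20% of B cells after the subtraction of ambient RNA. The level of 66.9 CPM (55.8 to 76.0) was near its value in all cells, but the exclusion removed only 63 of 3490 mature neutrophils and could hardly move it.

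Resident macrophages had the highest Csf1r and, among monocytes and macrophages, the lowest Csf2rb. Csf2rb stood at 294 CPM in unmixed inflammatory macrophages, with 312, 251, 316, 261, 371 and 249 CPM in libraries 1 to 6, and at 47.0 CPM in unmixed resident macrophages (32.5 to 69.8), 6.26-fold lower. In all cells the difference was 2.92-fold. Csf2ra was 98.8 CPM in unmixed resident (88.0 to 127) and 184 CPM in unmixed inflammatory macrophages (168 to 215), which did not overlap, although they did in all cells (107 to 174 and 173 to 221 CPM). Classical monocytes held 234 CPM of Csf2rb (208 to 305) and 213 CPM of Csf2ra (203 to 243) in unmixed cells, overlapping with inflammatory macrophages for both genes.

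Csf3r was the member that depended most on mixed cells. In all cells it was 2.26-fold higher in inflammatory macrophages (265 CPM, 235 to 315) than in classical monocytes (117 CPM, 90.8 to 130), without overlap. In unmixed cells the direction turned, to 82.6 CPM (69.5 to 96.8) against 109 CPM (81.8 to 124), and the libraries overlapped. The exclusion also changed the make-up of the macrophage class. It removed 1693 of 1855 cells of the cluster led by Apoe, Ccl8 and Arg1, and 308 of 2447 of the other. A UMI of Ly6g or Cxcr2 marked a cell as mixed, so the rule itself lowers neutrophil RNA, of which Csf3r is a part. How much each contributed was not tested. In resident macrophages Csf3r was 205 CPM in all cells and 31.2 CPM in unmixed cells (23.4 to 38.7), in type 2 dendritic cells 77.1 and 12.9 CPM, in basophils 210 and 8.34 CPM, and in fibroblasts 67.5 and 4.75 CPM. Classical monocytes kept nearly their full level, and 71.5% of their unmixed cells held a UMI of Csf3r.

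Between resident and inflammatory macrophages, 1 of 6 members lay higher in the resident class (Csf1r, 2.20-fold) and 2 lower (Csf2rb and Csf2rb2) in all cells. Of all genes 27.9% were without overlap there (1953 higher, 707 lower). In unmixed cells 1 member lay higher and 4 lower (Csf2ra, Csf2rb, Csf2rb2 and Csf3r), against 32.7% of all genes (2088 higher, 1068 lower). Between inflammatory macrophages and classical monocytes, 4 of 6 members lay higher in the macrophages in all cells (Csf1, Csf1r, Csf2rb2 and Csf3r). The background was 37.0% of all genes (1415 higher, 2068 lower). In unmixed cells 3 members lay higher, against 30.9% of all genes (1395 higher, 1504 lower). Csf1r was 2.03-fold and Csf2rb2 2.94-fold higher there in unmixed cells. Within single libraries, Csf2ra, Csf2rb, Csf2rb2 and Csf3r were lower and Csf1r higher in resident than in inflammatory macrophages in 6 of 6 libraries, in all and in unmixed cells, against 54.9% of all genes with one direction (51.1% in unmixed cells). Against classical monocytes, Csf2rb was higher and Csf2ra lower in inflammatory macrophages in 6 of 6 libraries, although both overlapped in range. The background with one direction was 60.3% there (54.2% in unmixed cells).

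**Figure D3:**
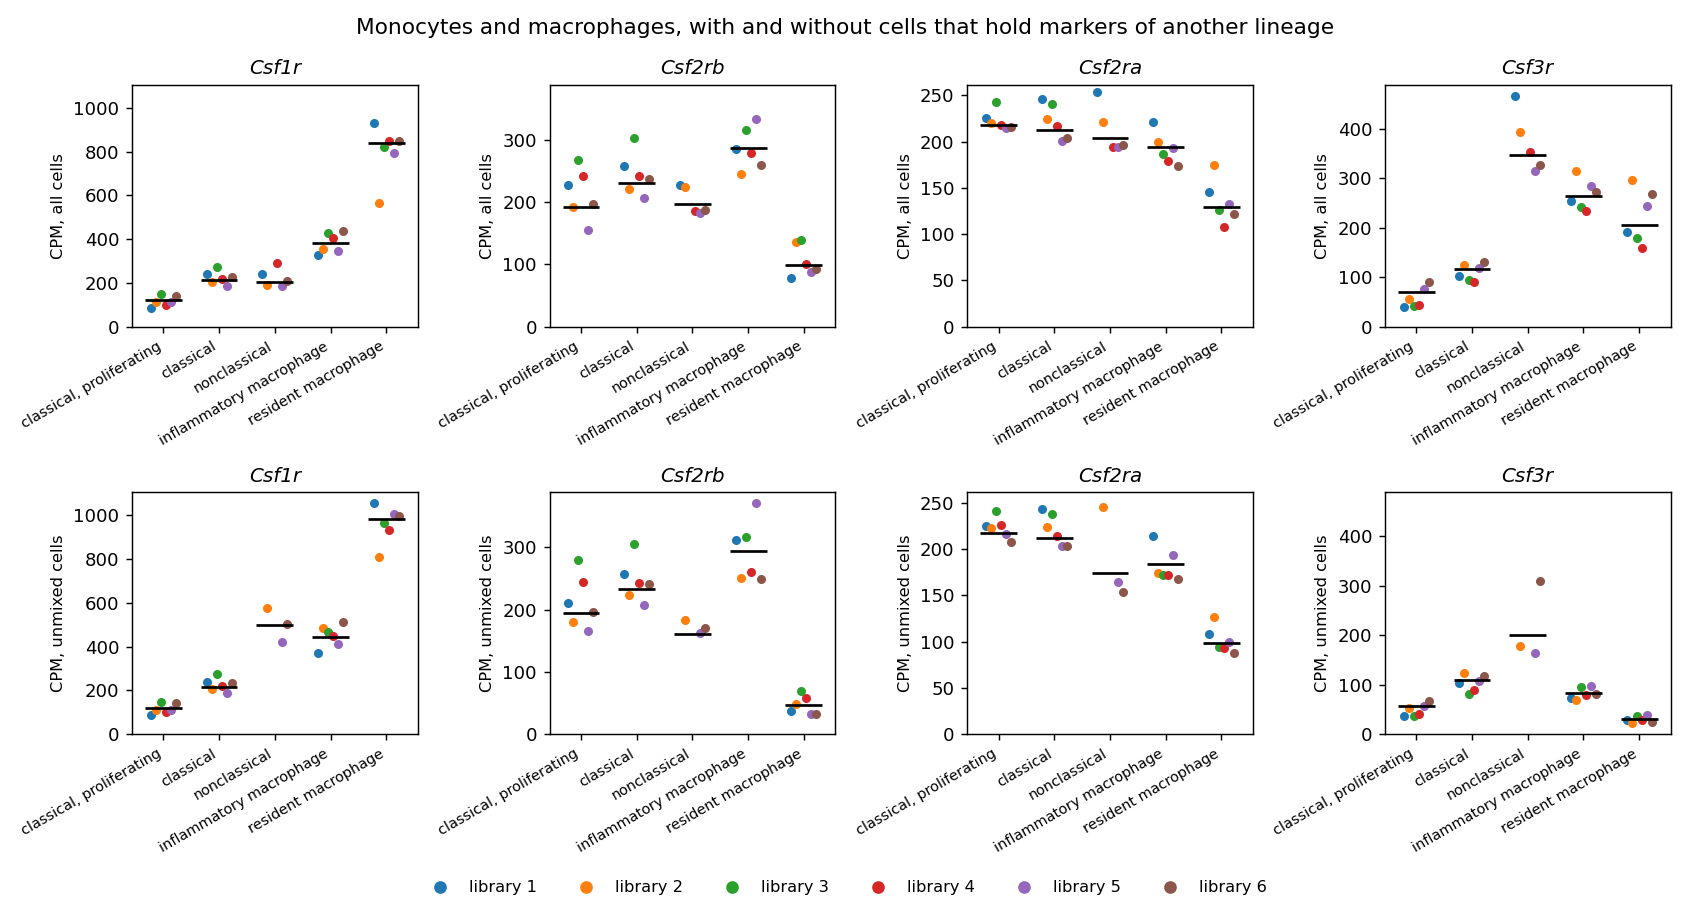
Csf1r, Csf2rb, Csf2ra and Csf3r in CPM in monocytes and macrophages, for all cells (top) and unmixed cells (bottom) on the same axes; points are libraries with at least 20 cells of the class, lines the value over all its cells. In unmixed cells Csf1r was 984 CPM in resident macrophages, where Csf2rb was at 47.0 CPM and Csf3r at 31.2 CPM.

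In the pathway list, 30 genes passed the filter in unmixed resident and inflammatory macrophages, of which 5 lay higher in the resident class without overlap, 9 lower and 16 overlapped, beside 32.7% of all genes without overlap. In all cells 31 passed, of which 5 lay higher, 6 lower and 20 overlapped, beside 27.9% of all genes. Kitl, the ligand of the receptor KIT, was 12.8-fold higher in resident macrophages (53.0 against 4.15 CPM). Socs3 was 1.96-fold and Stat3, which transmits G-CSF and other cytokine signals, 1.70-fold higher. Lower in resident macrophages were Fgr (42.9 against 197 CPM), Jak2 (90.5 against 198 CPM), Lyn (686 against 1363 CPM) and Cish, a feedback inhibitor that STAT5 induces (9.08 against 32.3 CPM). Il34, which encodes the other ligand of CSF1R, was at most at 17.0 CPM in any class, in fibroblasts (25 UMIs in 107 unmixed cells).

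The beta chains were highest outside the main myeloid lineages. Basophils, 52 cells led by Mcpt8, Il4 and Prss34, had 1012 CPM of Csf2rb (926 to 1103) and 527 CPM of Csf2rb2 (465 to 594), and mast cells 838 CPM (786 to 892) and 317 CPM (285 to 351), the brackets being 95% exact Poisson intervals. Only library 2 held 20 or more basophils (25 cells). Mixed cells made up 28 of the 52 basophils. The 24 unmixed ones had 1660 CPM of Csf2rb and 1084 CPM of Csf2rb2, and Csf2rb was seen in 95.8% of them. For mast cells Csf2rb was 858, 607 and 847 CPM in libraries 1, 4 and 5, the only ones with 20 or more of these cells. Csf2ra was low in both classes, at 21.8 CPM in unmixed mast cells and 33.4 CPM in unmixed basophils, and Il3ra, the interleukin 3 alpha chain, was at 48.7 CPM in the mast cells. Kit, the receptor that defines mast cells and one of the markers used to name them, was at 1727 CPM there.

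Csf2rb2 (chr15:78282507-78305721, minus strand) lies beside Csf2rb and resembles it. Of the 90-base windows of their full-length transcripts, 8.43% of Csf2rb-201 and 8.47% of Csf2rb2-201 were identical in the other gene, and no window in the last 500 bases of either was, which is the end that this 3′ assay reads. Shorter annotated transcripts did share windows there, with 58 in Csf2rb-202 (18.8%) and 12 in Csf2rb-204 (2.92%), and reads of such windows do not tell the genes apart. UMIs of the genes were therefore set side by side as a share. Csf2rb2 made up 41.7% of the UMIs of both genes in unmixed plasmacytoid dendritic cells (95% exact binomial interval 39.8 to 43.6; 2629 UMIs), with a range of 39.8 to 44.1% over 6 libraries. In unmixed basophils the share was 39.5% and in mast cells 28.0%.

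In unmixed cells the same share was 7.25% in classical monocytes (5.84 to 8.98% over libraries), 7.25% in mature neutrophils (5.19 to 9.20%) and 4.44% in granulocyte precursors. Inflammatory macrophages had 15.4% (11.8 to 16.6%) and type 2 dendritic cells 14.9% (12.5 to 16.9%), overlapping with each other and lying above every library of classical monocytes. Resident macrophages, with the lowest Csf2rb of the macrophages, had 23.8% (19.9 to 31.0%), above every library of the inflammatory class. In all cells these shares were 15.4% (12.2 to 17.6%) and 14% (10.9 to 15.2%), which overlapped, so the separation was seen in unmixed cells alone. Plasmacytoid dendritic cells thus stood above all other classes with values in 6 libraries. Their Csf2rb2 level was 158 CPM in all cells (117 to 197), and their Csf2rb level of 226 CPM (171 to 287) overlapped with that of classical monocytes.

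**Figure D4:**
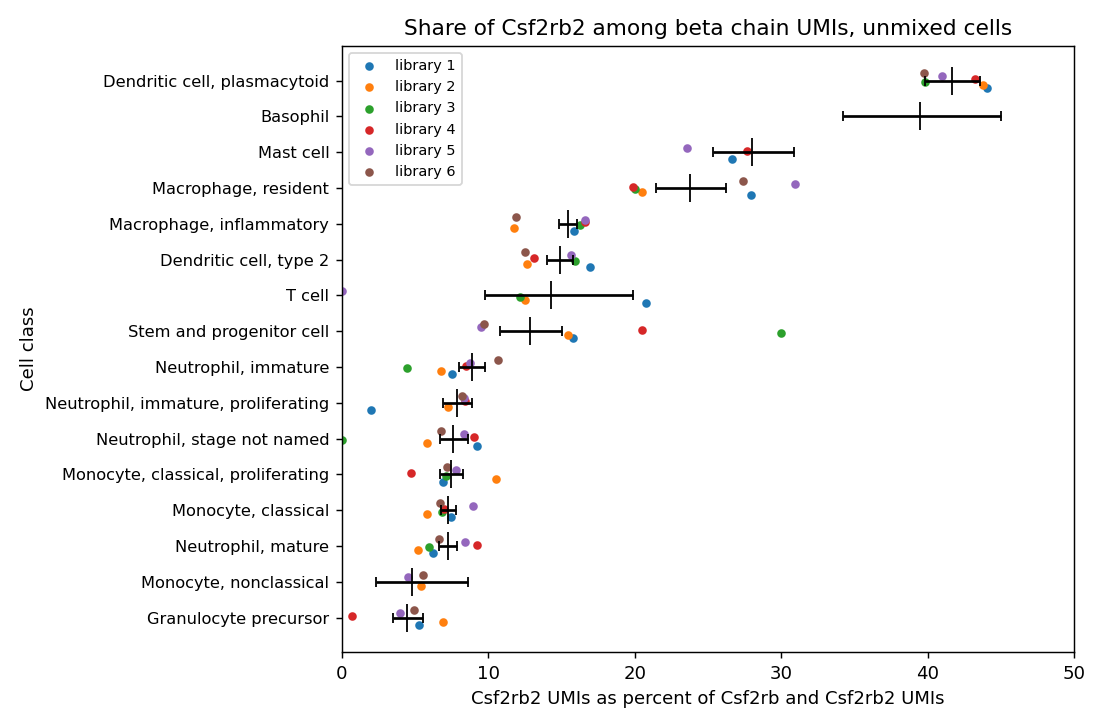
Csf2rb2 UMIs as percent of the UMIs of Csf2rb and Csf2rb2 together, in unmixed cells of classes with at least 200 such UMIs; ticks with bars are the value over all cells with its 95% exact binomial interval, points are libraries with at least 20 cells and 20 UMIs. Plasmacytoid dendritic cells (41.7%) and basophils (39.5%) lay highest, and the values over all cells of the neutrophil and monocyte classes lay under 10%.

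Cells that held the mRNA of more than 1 receptor were counted after each cell had been thinned to 3000 UMIs, so that depth was equal. UMIs of both Csf1r and Csf3r were found in 13.1% of 2275 unmixed classical monocytes (95% exact binomial interval 11.7 to 14.5), 13.9% of inflammatory macrophages, 5.66% of resident macrophages and 17.2% of 2838 mature neutrophils (15.8 to 18.6). In unmixed B cells the share was 0.0913% (2 of 2191 cells), and in T cells it was 0 of 1063 cells. Of the thinned mature neutrophils 96.2% held Csf3r, so their share with both genes was close to that with Csf1r (17.9%). Csf1r alone was in 0.730% of these B cells, whose shares are those left after the subtraction of ambient RNA. Nonclassical monocytes are not in this list. Of 133 of their unmixed cells, 73.7% held Csf1r and 41.4% held Csf3r, against 27.4% with Csf3r in classical monocytes. Their share with both genes is not given here. Both chains of the GM-CSF receptor, Csf2ra and Csf2rb, were found in 30.2% of mature neutrophils, 21.3% of inflammatory macrophages, 20.6% of classical monocytes and 18.3% of type 2 dendritic cells, against 2.89% of resident macrophages and 0.183% of B cells. In all cells the share with Csf1r and Csf3r was 20.2% in resident macrophages. A cell with RNA of another lineage but without the UMIs that mark a mixed cell would count as unmixed. The part of such cells in these shares was not tested. At 3000 UMIs, 589 mature neutrophils were too shallow to be counted. Thinned shares do not give the number of cells that hold both mRNAs, since deep cells lose more of their UMIs. In all cells without thinning, Csf2ra with Csf2rb was seen in 45.6% of mature neutrophils and 79.6% of classical monocytes.

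Among the ligands Csf1 was by far the most abundant, with 13343 UMIs in 3912 cells, while Csf2 had 812 UMIs in 157 cells and Csf3 had 566 UMIs in 233 cells. Csf1 (chr3:107741048-107760469, minus strand) was highest in basophils, at 900 CPM (819 to 986), and in the 24 unmixed basophils at 1760 CPM (1530 to 2014). Fibroblasts followed at 314 CPM (425 and 215 CPM in libraries 1 and 5), then mast cells at 204 CPM. Mature neutrophils had 200 CPM, with 343, 232, 456, 180, 153 and 133 CPM in libraries 1 to 6. Libraries 1 and 3 were the highest and library 6 the lowest, and Csf3r in the same cells had no such spread. The 3490 mature neutrophils held 25.6% of all Csf1 UMIs, and 41.9% of those in unmixed cells. Inflammatory macrophages held 27.9% of them in all cells and 9.02% in unmixed cells, and their level was 38.5 CPM in all and 18.7 CPM in unmixed cells. The exclusion removed 2001 of 4302 inflammatory macrophages but only 63 of 3490 mature neutrophils, so it did not treat these classes alike. It also removed most of the macrophage cluster led by Apoe, Ccl8 and Arg1. How much each contributed to the changed shares and levels was not tested.

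Within mature neutrophils, Csf1 was 385 CPM in the unmixed cells of the interferon-stimulated cluster and 179 CPM in the main cluster. The 4 libraries with enough cells of the first had 167 to 864 CPM and the 6 of the second 130 to 419 CPM, which overlapped. Only 24.8% of mature neutrophils held a UMI of Csf1, and 1 cell held 41. Of the immature clusters, the one with the highest Csf3r had 72.5 CPM of Csf1 (39.9 to 121) and the other 2 had 5.33 and 2.66 CPM. B cell precursors had 29.6 CPM (10.5 to 58.8) and classical monocytes 5.31 CPM.

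Csf2 (chr11:54247271-54249667, minus strand) was concentrated in lymphoid cells. The 130 type 2 innate lymphoid cells held 307 of the 812 UMIs (37.8%) at 271 CPM (242 to 304), with 463, 86.5 and 244 CPM in libraries 4, 5 and 6, and 71, 44 and 26 UMIs in libraries 1 to 3, which had fewer than 20 of these cells each. A UMI was seen in 35.4% of them. The 1188 T cells held 262 UMIs (32.3%) at 19.7 CPM, with 35.2, 3.06, 19.5, 12.9, 16.6 and 24.7 CPM in libraries 1 to 6, and a UMI was seen in 4.63% of T cells. NK cells held 69 UMIs, of which 48 lay in 1 cell. The 143 CPM of basophils came from 2 cells of library 5, of which 1 held 63 of the 73 UMIs. The 3490 mature neutrophils held 1 UMI of Csf2, and unmixed mast cells had 23.0 CPM (18 UMIs). The same innate lymphoid cells had Il5, which signals through the shared beta chain, at 706 CPM in unmixed cells. Il5 was among the markers that named this class, so its level there is no independent result.

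Csf3 (chr11:98701263-98703629, plus strand) was near the limit of detection in every class. The highest level was 12.7 CPM in fibroblasts, from 35 UMIs of which 1 cell held 22, and it was 2.72 CPM (4 UMIs) in the 107 unmixed ones. Mature neutrophils had 86 UMIs at 5.04 CPM, with 27.9 CPM in library 3 and 1.26 to 10.1 CPM in the other 5, and 0.716% of these cells held a UMI. Inflammatory macrophages held 28.8% of all Csf3 UMIs at 1.68 CPM, and 0.619 CPM in unmixed cells. Fewer than 20 fibroblasts were present in 4 of the 6 libraries, and cells outside the CD45+ sort were not analysed here.

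**Figure D5:**
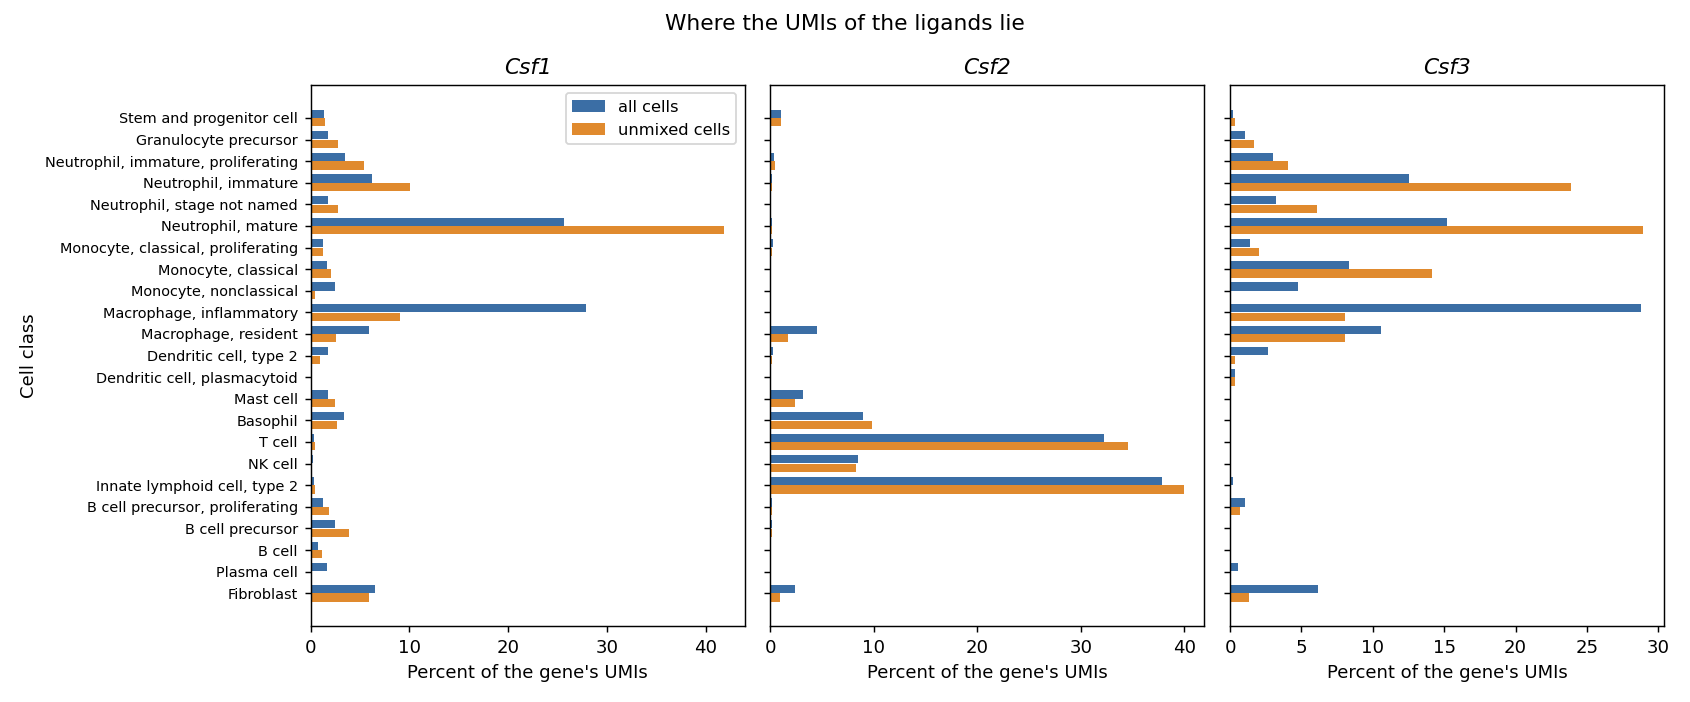
Percent of the UMIs of Csf1, Csf2 and Csf3 that lay in each cell class, of the UMIs in all cells (blue) and of those in unmixed cells (orange). The class of 15 erythroid cells is not drawn. Mature neutrophils held 25.6% of Csf1 UMIs in all and 41.9% in unmixed cells, and type 2 innate lymphoid cells and T cells together held most of the 812 Csf2 UMIs. The exclusion removed 2001 of 4302 inflammatory macrophages and 63 of 3490 mature neutrophils.

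The genes most like each member were those with the highest Pearson correlation of log2(CPM + 1) over the 24 classes in all cells, among 14027 genes. The classes share libraries and mixed cells, so the correlations are descriptions. Csf3r was closest to Trem1 (0.975), Il1rap (0.969) and Clec4d (0.959), and Csf1r to Cd68 (0.95), Adgre1 (0.940) and Tgfbi (0.934). Trem1 was among the markers that named the mature neutrophil class, so its place is no independent result. Csf2rb and Csf2rb2 were each closest to the other (0.917), followed by Plek and I830077J02Rik for Csf2rb and by Abr and Plek for Csf2rb2. Csf2ra was closest to Tlr2 (0.951), Gm21975 (0.938) and Arpc1b (0.938). In unmixed cells the order changed for several members, and I830077J02Rik (0.904) came just before Csf2rb2 (0.903) for Csf2rb, and P2ry6 (0.924) before Cd68 (0.918) for Csf1r. For the ligands, Csf1 was closest to Ctnna3 (0.833), 1600002D24Rik (0.800) and Egr1 (0.786), and Csf3, at levels of a few CPM, to Pde1a (0.945), Musk (0.915) and Igfbp6 (0.881). Genes like Csf2 included Rab4a (0.913) and Gm27162 (0.887).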

How the data were processed

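Libraries had been prepared by the authors with a 10x Genomics 3′ kit from sorted CD45+ synovial cells. Per the study's methods and the submitters' processing notes, reads were aligned to mm10 with Cell Ranger 7, ambient RNA was subtracted, doublets were removed and cells of low quality were discarded. The deposited matrix holds whole UMI counts per gene and cell, and 1.68% of its entries are stored as 0. These counts were used as deposited, with no correction between libraries. No doublet caller was run again.

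Cells were normalized, clustered (scanpy 1.11.5, Leiden resolution 1.0, members left out) and named from marker genes, with at least 3 detected markers per name. Levels are pooled UMIs per 1000000 (CPM) with 95% exact Poisson intervals, and shares have 95% exact binomial intervals. Both cover counting error only. Library values were given for at least 20 cells of a class, and classes were compared by whether their library ranges overlapped. No test was run, because the treatment of each library was not known. The scripts were tested on simulated data. The members, marker lists and pathway list were chosen with earlier results of these data known. Named genes were the members, the pathway list and the 3 genes most like each member. Some of the named genes are not reported here.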

Additional observations from a re-analysis of the deposited data

How the results depend on the processing

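With cells thinned to 3000 UMIs, which weights each cell alike, Csf3r in all neutrophils was 794 CPM against 478 CPM, Csf1 64.9 against 39.0 and Csf3 1.87 against 1.51. The same setting gave 432 CPM for Csf1r and 179 for Csf2ra in monocytes and macrophages (382 and 190 as reported), 1000 and 413 for Csf2rb and Csf2rb2 in mast cells and basophils (891 and 381), and 29.1 for Csf2 in T, NK and innate lymphoid cells (32.9). Single cells gated by their own markers gave, in the same order of genes, 426 (Csf3r), 24.7 (Csf1), 529 (Csf1r), 163 (Csf2ra), 437 (Csf2rb), 155 (Csf2rb2) and 21.8 CPM (Csf2), where 149 of 210 gated mast cells and basophils lay in the clusters of these classes. Medians over libraries were 498 (Csf3r), 45.9 (Csf1), 2.10 (Csf3) and 393 CPM (Csf1r). Without mixed cells, an exclusion chosen after the data were seen, the levels were 490 (Csf3r), 40.3 (Csf1), 407 (Csf1r), 184 (Csf2ra), 1059 (Csf2rb), 471 (Csf2rb2) and 38.0 CPM (Csf2). Leiden resolution 0.5 gave 471 (Csf3r), 389 (Csf1r), 838 (Csf2rb) and 317 CPM (Csf2rb2), and resolution 2.0 gave 466 (Csf3r), 393 (Csf1r) and 37.1 CPM (Csf1). At resolution 0.5 the mast cell and basophil group held 191 cells against 243 as reported. Its levels of Csf2rb and Csf2rb2 were those given above for mast cells alone. Every other level under these settings stayed inside its 95% Poisson interval.

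When 1 library at a time was dropped, the levels ranged from 468 to 512 CPM (Csf3r), 34.9 to 45.8 (Csf1), 1.28 to 1.90 (Csf3), 366 to 399 (Csf1r), 187 to 194 (Csf2ra), 858 to 926 (Csf2rb), 362 to 404 (Csf2rb2) and 28.9 to 36.8 CPM (Csf2). The members without overlap then numbered 5 to 6 (mature with immature neutrophils), 2 to 3 (immature neutrophils with precursors), 4 to 5 (inflammatory macrophages with monocytes), 3 to 4 (resident with inflammatory macrophages) and 4 to 4 (neutrophils with monocytes and macrophages). Between resident and inflammatory macrophages the count was 5 without mixed cells and 3 with them.

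Shares of cells with UMIs of 2 receptors followed depth. For Csf1r with Csf3r they were 9.11% at 1500 UMIs and 25.5% unthinned in mature neutrophils (17.5% at 3000), 4.58% and 66.7% in classical monocytes (13.2%), and 9.35% and 37.5% in resident macrophages (20.2%, and 5.66% without mixed cells). For Csf2ra with Csf2rb they were 13.2% and 45.6% in mature neutrophils (30.3%) and 7.84% and 79.6% in classical monocytes (20.3%). No order between classes was read from unthinned shares. No paired analysis was possible because, for PBS with PEPITEM, the libraries carry no label of treatment or replicate, and that comparison was not run. Cell classes do share libraries, and their direction within each library, an alternative chosen after the data were seen, stands beside the ranges above.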
